A study of Mus musculus with 25 samples.

Results

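The common gamma chain receptors of CD8+ T cells are described here through 7 subunit genes, Il7r, Il2ra, Il2rb, Il2rg, Il15ra, Il21r and Il4ra, out of 23366 gene symbols measured. They were chosen by name, as chains that form receptors for IL-2, IL-4, IL-7, IL-15 and IL-21, and all 7 had a value of at least 1 in at least 3 libraries, the minimum for testing. The libraries are bulk RNA sequencing of CD8+ T cells taken from B16F10 tumours, a transplanted mouse melanoma, in C57BL/6 mice. There were 3 libraries of Prdm1/c-Maf cDKO mice, which lack both factors through conditional knockout, 3 of Prdm1 cKO, 3 of c-Maf cKO and 16 of wild type (WT). The promoter or Cre line that drives deletion, the age and sex of the mice and whether each library came from its own animal are not given in the sources used. The p-values therefore rest on the spread among libraries, part of which may be technical. The study's title sets WT against cDKO cells, and the single knockouts allow each factor's loss to be compared with the loss of both.

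Each receptor of this family joins a private chain to the shared common gamma chain, the product of Il2rg. Il7r encodes the IL-7 receptor alpha chain, which naive and memory T cells carry and which activated effector cells lose. Il2ra (CD25) raises the affinity of the IL-2 receptor and is induced by activation, while Il2rb signals for both IL-2 and IL-15. Il15ra binds IL-15 and can present it to neighbouring cells, Il21r binds IL-21 and Il4ra binds IL-4. The receptors signal through the kinases Jak1 and Jak3 to STAT5 for IL-2, IL-7 and IL-15, to STAT6 for IL-4 and to STAT3 for IL-21. Blimp-1, the product of Prdm1, represses transcription in differentiating lymphocytes, and c-Maf, the product of Maf, is a bZIP transcription factor.

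The promoters of the 3 members with the steepest changes are printed because the deleted factors and the family's own STAT proteins bind DNA. Each runs from 250 bases before to 50 after the annotated start, 5′ to 3′ on the gene's strand, and comes from RefSeq on build GRCm38.p6. Entries were matched by symbol for 6 of the 7 members, with 7 promoters because Il15ra has 2 starts. Capitals mark matches, on either strand, to 4 short motifs: AGNGAAAG for Blimp-1, TGCTGA for Maf, TTCNNNGAA for STAT proteins and GTAAACA for Foxo proteins.
Il7r, chr15:9529827-9530126, minus strand: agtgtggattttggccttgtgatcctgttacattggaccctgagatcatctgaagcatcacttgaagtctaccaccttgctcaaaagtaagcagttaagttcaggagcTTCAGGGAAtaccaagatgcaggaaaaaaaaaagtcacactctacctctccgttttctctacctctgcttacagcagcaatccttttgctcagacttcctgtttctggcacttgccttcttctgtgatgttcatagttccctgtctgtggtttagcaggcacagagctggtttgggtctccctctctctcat
Il4ra, chr7:125552021-125552320, plus strand: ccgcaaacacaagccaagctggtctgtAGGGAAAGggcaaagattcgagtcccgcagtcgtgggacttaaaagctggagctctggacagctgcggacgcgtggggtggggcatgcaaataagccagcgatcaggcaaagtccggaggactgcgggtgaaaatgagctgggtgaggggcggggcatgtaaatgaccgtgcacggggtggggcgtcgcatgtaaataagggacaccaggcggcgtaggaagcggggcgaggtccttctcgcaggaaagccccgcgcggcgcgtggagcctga
Il2ra, chr2:11642542-11642841, plus strand: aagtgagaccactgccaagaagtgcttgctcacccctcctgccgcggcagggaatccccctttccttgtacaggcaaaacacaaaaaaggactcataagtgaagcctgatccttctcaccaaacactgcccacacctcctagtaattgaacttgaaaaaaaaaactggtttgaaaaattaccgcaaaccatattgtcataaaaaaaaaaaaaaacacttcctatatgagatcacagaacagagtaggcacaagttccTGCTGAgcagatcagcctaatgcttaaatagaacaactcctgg
Il7r held a STAT match that begins 142 bases before the start (position -142). Il4ra held a Blimp-1 match at -223, and Il2ra a Maf match that begins at base 8 of the transcript. The other promoters held a Maf match at -209 (Il2rg), a Foxo match at -38 (Il21r), and Blimp-1 and Maf matches at 28 and -33 (1 of the 2 Il15ra promoters). Such letters are common: of 32851 promoters of this length, 8.63% held the Blimp-1 motif, 19.5% the Maf motif, 8.30% the STAT motif and 3.65% the Foxo motif. The matches describe the sequence only. In the RefSeq gene order, Il2ra and Il15ra are neighbours on chromosome 2, and Il4ra and Il21r are neighbours on chromosome 7.

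Values are the authors' normalised signal, whose scale is not stated. Summed signal was between 389650 and 475956 per library. Prdm1 stood at 4.69, 1.18 and 3.27 in the cDKO libraries C2, A1 and A2 and at 4.71, 0.41 and 3.66 in the Prdm1 cKO libraries A5, A6 and A9. In WT its lowest, median and highest values were 6.45, 14.5 and 24.85, so both groups lay below all WT libraries. Maf was near 0 throughout, with 0.00, 0.18 and 0.03 in cDKO, 0.00, 0.00 and 0.93 in c-Maf cKO and 0.03 to 0.95 in WT, and the 0.93 of the library labelled c-Maf cKO C1 lay inside the WT range. Cd8a was between 70 and 244 in all 25 libraries and Cd4 at or below 1.84, as the labelled cell type calls for. The lowest Cd8a, 70.05, was that of cDKO A1. Summed signal of 9 CD8 T cell markers was 1490 to 2758 in cDKO (median 1762) and 1569 to 1991 in Prdm1 cKO (median 1907). It was 2746 to 2838 in c-Maf cKO (median 2758) and 1251 to 3544 in WT (median 2685). Summed signal of 15 macrophage and monocyte markers was 153.5 to 237.7 in cDKO, 1388 to 4196 in Prdm1 cKO, 202.7 to 1172 in c-Maf cKO and 52.7 to 2375 in WT, and that of 7 erythroid markers was 463 to 4254, 221 to 1842, 15.8 to 133 and 1.38 to 1568 in the same order.

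Il7r was the member most raised by loss of both factors. Its values were 98.64, 95.99 and 96.47 in cDKO, against a lowest, median and highest of 8.39, 21.2 and 56.71 in WT. The 3 cDKO libraries were almost equal and all stood above all 16 WT libraries. The share of all genes that separate from WT this way, here or for genes named below, was not computed. The cDKO mean was 97.0 ± 1.41 (SD, n = 3), against 22.5 ± 11.1 in WT (n = 16), a ratio of 4.32. On the log2(value + 1) scale Il7r rose by 2.19 ± 0.34 (SE, limma's test, Benjamini-Hochberg adjusted p = 0.0002 over 12251 genes, of which 11.9% were called at an adjusted p under 0.05).

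Prdm1 loss alone also went with higher Il7r. The Prdm1 cKO libraries held 37.52, 66.54 and 71.35 (58.5 ± 18.3), against 22.5 ± 11.1 in WT. A6 and A9 stood above all WT libraries, and A5 was exceeded by a single WT library, A4 at 56.71. The log2 difference was 1.41 ± 0.34 (limma adjusted p = 0.0226, with 3.45% of genes called). With the marker scores of macrophages, dendritic, B and regulatory T cells held constant it was 0.998 with an adjusted p of 0.478, and in cDKO it was 1.99 with 0.0225. The c-Maf cKO libraries held 18.74, 21.26 and 9.17 (16.4 ± 6.38), all within the WT range.

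In a bulk library, fewer cells of a type and less RNA per cell cannot be told apart, and this holds for every level given here. The group means of Il7r ran from cDKO through Prdm1 cKO and WT to c-Maf cKO. Neither cDKO and Prdm1 cKO (adjusted p = 0.493, 95% interval of the log2 difference -0.13 to 1.68) nor c-Maf cKO and WT (0.852, -1.08 to 0.31) passed the test as neighbours in that order.

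Il4ra, the IL-4 receptor alpha chain, followed the same order at the top. Its values were 94.16, 117.20 and 116.31 in cDKO (109 ± 13.1), against a lowest, median and highest of 16.61, 32.2 and 49.22 in WT (34.4 ± 8.93). All 3 cDKO libraries stood above all WT libraries, a ratio of means of 3.17. The log2 difference was 1.68 ± 0.21 (limma adjusted p = 4.1e-05), the smallest p of the 7 members. In Prdm1 cKO the values were 45.88, 77.75 and 65.76 (63.1 ± 16.1), of which A6 and A9 lay above the WT range. Il4ra rose there by 0.87 ± 0.21 (adjusted p = 0.0241). The c-Maf cKO values of 27.70, 34.15 and 31.89 (31.2 ± 3.27) lay within the WT range. The summed signal of 7 B cell markers was 11.3 to 14.2 in cDKO, 10.3 to 16.6 in Prdm1 cKO, 1.29 to 3.05 in c-Maf cKO and 1.96 to 11.47 in WT. Of these 7, 4 reached the minimum for testing, and 2 were called higher in cDKO and 0 in Prdm1 cKO. Pax5 alone of the 7 was at 0 in all 3 cDKO libraries, against 0 to 0.38 in WT. With the marker scores held constant, the Il4ra difference was 1.55 in cDKO (adjusted p = 0.0054) and 0.36 in Prdm1 cKO (0.691).

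**Figure D1:**
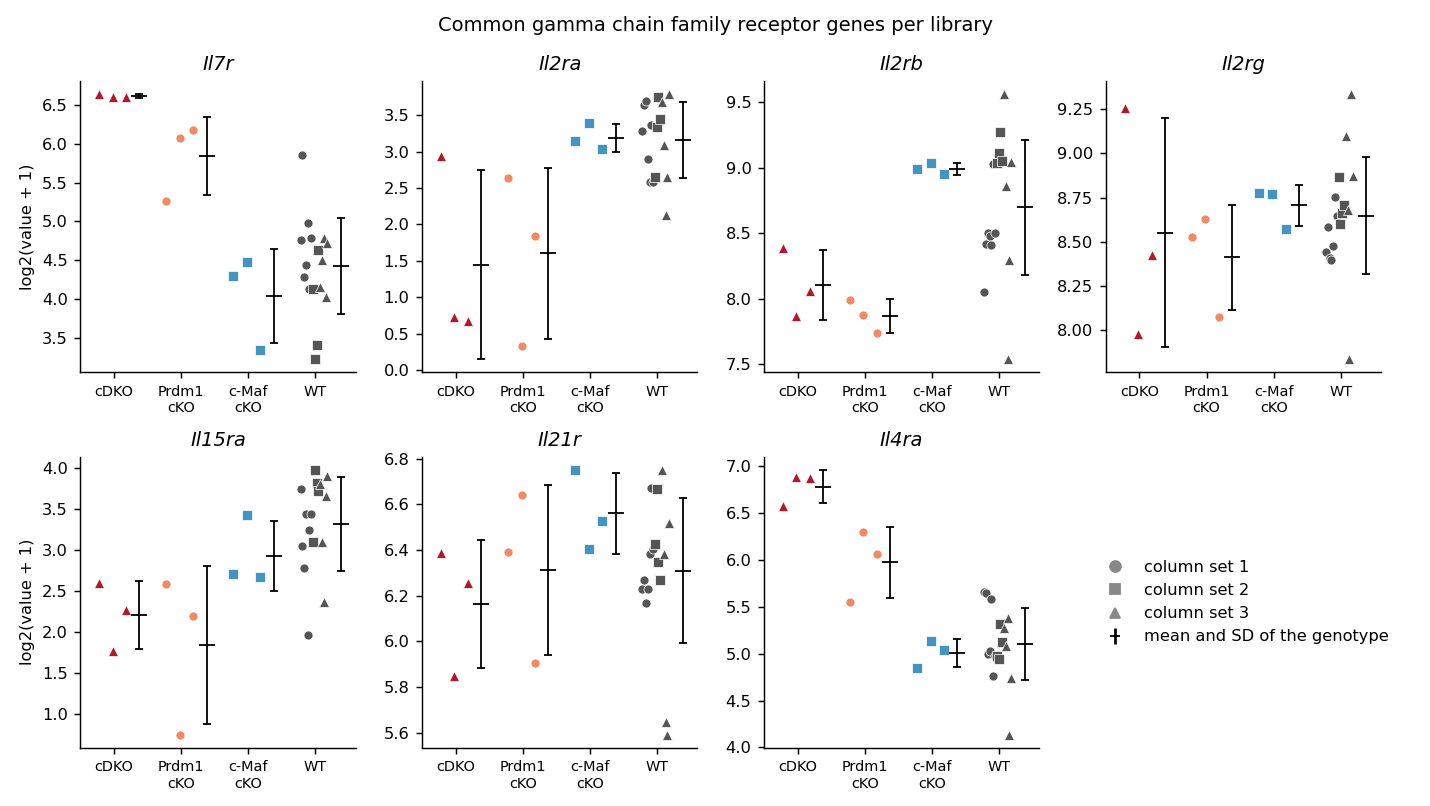
Points are libraries and the y axis of each panel is log2(value + 1) of 1 receptor gene, on its own range. Black marks are the mean and SD of a genotype, and the shape gives the column set, a run of adjacent columns of the deposited table. The 3 cDKO libraries lie above all 16 WT libraries for Il7r and Il4ra, and 2 of 3 lie below all of them for Il2ra.

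Il2ra, the inducible alpha chain of the IL-2 receptor, went the other way. Its values were 6.68, 0.66 and 0.59 in the cDKO libraries C2, A1 and A2 (2.64 ± 3.50), against a lowest, median and highest of 3.36, 8.92 and 12.80 in WT (8.46 ± 3.12). A1 and A2 lay below all WT libraries, and C2 lay among them. Il2ra fell by 1.71 on the log2 scale (SE 0.41, limma adjusted p = 0.00636). Without A1 the adjusted p was 0.093 and without A2 0.117, while without C2 the fall was 2.46 with an adjusted p of 5.1e-04. Il2ra is also carried by regulatory T cells. The summed signal of 7 CD4 and regulatory T cell markers was 22.48, 6.31 and 11.05 in C2, A1 and A2, against 11.04 to 47.94 in WT. Foxp3, a marker in that list, was 4.78, 0.67 and 0.00 there. In WT the library with the most Foxp3, B3 at 6.72, had the least Il2ra, 3.36. B6 and A7, at 4.39 and 4.34 of Foxp3, had 12.80 and 11.98 of Il2ra. Whether regulatory T cells account for the Il2ra difference was not tested. With the 4 marker scores held constant the Il2ra difference was -0.65 (adjusted p = 0.446).

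The Prdm1 cKO libraries resembled cDKO in Il2ra. They held 5.22, 0.25 and 2.58 in A5, A6 and A9 (2.68 ± 2.49), and A6 and A9 lay below all WT libraries. Il2ra fell by 1.56 (SE 0.41, adjusted p = 0.0325), and without A6 the adjusted p was 0.31. The c-Maf cKO values of 7.81, 9.54 and 7.17 (8.17 ± 1.23) lay within the WT range. The order of group means ran from WT and c-Maf cKO, whose 95% interval of the log2 difference was -0.81 to 0.87, down to Prdm1 cKO and cDKO, whose interval was -1.24 to 0.93.

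Il15ra, the neighbour of Il2ra on chromosome 2, was also lower. Its values were 5.02, 2.40 and 3.80 in cDKO (3.74 ± 1.31) and 4.97, 0.68 and 3.58 in Prdm1 cKO (3.08 ± 2.19), against a lowest, median and highest of 2.88, 9.80 and 14.68 in WT (9.62 ± 3.55). A1 and A6 lay below the WT range and the others inside it, with 14 of 16 WT libraries above the highest library of either group. Il15ra fell by 1.11 in cDKO (SE 0.35, limma adjusted p = 0.0377) and by 1.47 in Prdm1 cKO (SE 0.35, adjusted p = 0.0212). The c-Maf cKO libraries held 5.50, 9.69 and 5.34 (6.84 ± 2.47), within the WT range. In cDKO the call of Il15ra held in 28 of 36 alternatives and was lost, among others, without A1 (adjusted p = 0.22), without A2 (0.14) and with the column set as covariate (0.0767).

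Il2rb carried far more signal than Il2ra. It stood at 334.95, 232.70 and 265.80 in cDKO (278 ± 52.2) and at 253.78, 233.71 and 212.72 in Prdm1 cKO (233 ± 20.5), against a lowest, median and highest of 185.44, 413 and 755.00 in WT (438 ± 147). In Prdm1 cKO 15 of 16 WT libraries exceeded all 3 knockout libraries, and the exception was B3. The log2 differences were -0.59 ± 0.26 in cDKO (adjusted p = 0.148) and -0.83 ± 0.26 in Prdm1 cKO (adjusted p = 0.0657), and neither passed the test over all genes. The c-Maf cKO libraries were tightly grouped at 507.19, 523.84 and 493.72 (508 ± 15.1). Without B3 both passed, at -0.67 in cDKO (adjusted p = 0.0364) and at -0.91 in Prdm1 cKO (0.0168), and in Prdm1 cKO also without A3.

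Il2rg, the shared chain, did not pass in any comparison. Its values were 610.64, 250.74 and 341.92 in cDKO (401 ± 187), 368.21, 395.44 and 268.48 in Prdm1 cKO (344 ± 66.8) and 436.72, 435.63 and 379.28 in c-Maf cKO (417 ± 32.9), against a lowest, median and highest of 227.37, 401 and 645.30 in WT (410 ± 94.3). The 95% interval of the log2 difference was -0.53 to 0.33 in cDKO and -0.67 to 0.19 in Prdm1 cKO.

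Il21r did not pass either. It stood at 82.65, 56.62 and 75.47 in cDKO (71.6 ± 13.4), 83.07, 98.78 and 58.94 in Prdm1 cKO (80.3 ± 20.1) and 106.73, 83.68 and 91.30 in c-Maf cKO (93.9 ± 11.7), against 47.25, 81.5 and 106.56 as lowest, median and highest in WT (80.0 ± 16.2). The interval of its log2 difference was -0.53 to 0.24 in cDKO and -0.38 to 0.39 in Prdm1 cKO. Its neighbour Il4ra on chromosome 7 was called in both groups, and the difference between these neighbours was not tested.

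In cDKO, then, 4 of the 7 members passed, with Il7r and Il4ra higher and Il2ra and Il15ra lower, where 11.9% of all genes were called. The same 4 members passed in Prdm1 cKO in the same directions, where 3.45% were, and both comparisons share the 16 WT libraries. For Prdm1 cKO, 0 of the 7 members passed without A6, without A9, or with the column set as covariate, and the adjusted p-values of these 4 with the column set ran from 0.114 for Il7r to 0.126 for Il4ra. In cDKO the calls of Il7r and Il4ra held in 36 of 36 alternatives. Each gene was also compared by an exact two-sided permutation test over libraries, 21 tests in all, unadjusted. Il7r and Il4ra gave p = 0.00103 in cDKO, the smallest that 3 libraries against 16 allow, and 0.00206 and 0.00413 in Prdm1 cKO. Il2ra and Il15ra gave 0.00722 each in cDKO and 0.00413 and 0.00619 in Prdm1 cKO. Il2rb gave 0.0702 in cDKO and 0.0134 in Prdm1 cKO, the only member past 0.05 by this test in a comparison where limma over all genes did not call it.

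Against the adjacent WT columns alone, the exact tests have less reach. With 5 adjacent WT libraries, Il7r and Il4ra in cDKO gave p = 0.0179, the smallest possible, because all 3 cDKO libraries again stood above them. With 7 adjacent WT libraries, Il2rb in Prdm1 cKO gave 0.00833, also the smallest possible, with a mean of 233 ± 20.5 against 364 ± 77.4. Il7r in Prdm1 cKO gave 0.025 and Il4ra 0.0583. Il2ra in cDKO gave 0.0893.

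**Figure D2:**
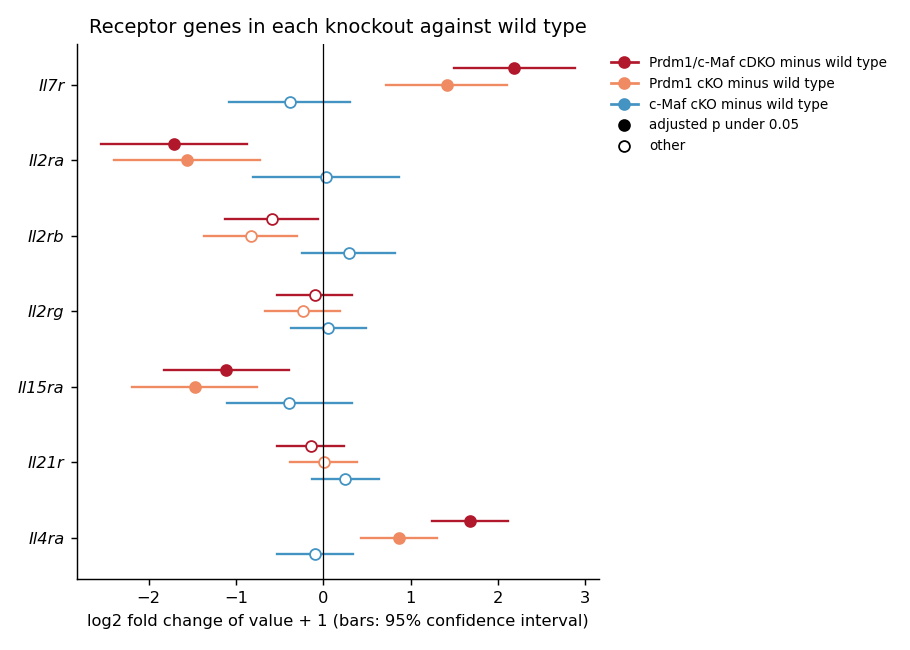
Each point is the limma log2 fold change of value + 1 of a receptor gene in a knockout group against WT, and the bar is its 95% confidence interval. Filled points passed an adjusted p under 0.05. Il7r and Il4ra lie right of 0 and Il2ra and Il15ra left of it in cDKO and Prdm1 cKO, while all 7 intervals of c-Maf cKO include 0.

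No member passed with loss of c-Maf alone. Every c-Maf cKO value lay inside the WT range except Il21r in B10, 106.73 against a highest WT value of 106.56. In c-Maf cKO against WT, 0 of the 7 members and 0% of all 12251 genes were called by limma, and 755 genes had an unadjusted p under 0.05. The widest log2 differences among members were -0.39 ± 0.35 for Il15ra and -0.38 ± 0.34 for Il7r. The smallest exact p among the 7 members was 0.21, for Il21r, against all WT libraries, and 0.0857, for Il15ra, against the 4 adjacent WT libraries, where 0.0286 is the smallest possible. That Il15ra difference was -0.72 on the log2 scale. With 3 libraries these intervals still admit a change, such as -1.11 to 0.33 for Il15ra.

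Set against c-Maf cKO, the cDKO libraries differ by label in the added loss of Prdm1, and they also lie in another column set, 3 against 2. With the column set as covariate, 110 genes were called higher and 22 lower over all genes, against 463 and 687 without it. Il7r was higher by 2.57 ± 0.44 (limma adjusted p = 0.00115), Il4ra higher by 1.77 ± 0.28 (6.7e-04) and Il2ra lower, by -1.74 ± 0.53 (0.0369), so that 3 of 7 members passed where 9.39% of genes did. All 3 calls were lost with marker scores as covariates, a setting in which 0 of all 12251 genes were called. The Il2ra call held in 24 of 36 alternatives. In Prdm1 cKO against c-Maf cKO, Il7r alone passed (1.80 ± 0.44, adjusted p = 0.0434), where 1.53% of genes did. The call was lost with the column set as covariate, where 0 of all 12251 genes were called. Set against Prdm1 cKO, the cDKO libraries differ by label in the added loss of c-Maf, and 0 of 7 members passed by limma, with 0.392% of genes called. Il4ra differed most, with 109 ± 13.1 in cDKO against 63.1 ± 16.1 in Prdm1 cKO, a log2 difference of 0.81 ± 0.28 (adjusted p = 0.181). The cDKO libraries all exceeded the Prdm1 cKO libraries for Il7r and for Il4ra. These groups lie in different column sets, 3 and 1, and the share of all genes that separate this way was not computed. Their summed macrophage marker signal was 153.5 to 237.7 and 1388 to 4196, and the cause of the separation was not tested.

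The departure from additivity asks whether the loss of both factors exceeds the sum of the single losses. It was 1.16 ± 0.55 for Il7r (limma adjusted p = 0.41, 95% interval 0.02 to 2.30) and 0.90 ± 0.35 for Il4ra (0.299, 0.19 to 1.61). Neither passed, and 0 of 7 members and 0.00816% of all genes were called.

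The balance between IL-7 and IL-2 receptor signal was described per library as the difference of the log2(value + 1) of Il7r and Il2ra, with no test. It was 5.17 ± 1.27 in cDKO, 4.24 ± 1.57 in Prdm1 cKO, 0.85 ± 0.47 in c-Maf cKO and 1.27 ± 0.86 in WT. The lowest cDKO library, at 3.70, exceeded the highest WT library, at 2.67. In Prdm1 cKO the lowest library, at 2.63, fell just inside the WT range. The ratio of Il2rb to Il7r signal, in the authors' units, had a median of 2.76 in cDKO (2.42 to 3.40), 3.51 in Prdm1 cKO (2.98 to 6.76), 27.1 in c-Maf cKO (24.6 to 53.8) and 20.6 in WT (6.03 to 65.8). Low values scale with transcript length in the table as in length-scaled units, so levels of different genes can be set side by side only as far as that scaling holds.

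**Figure D3:**
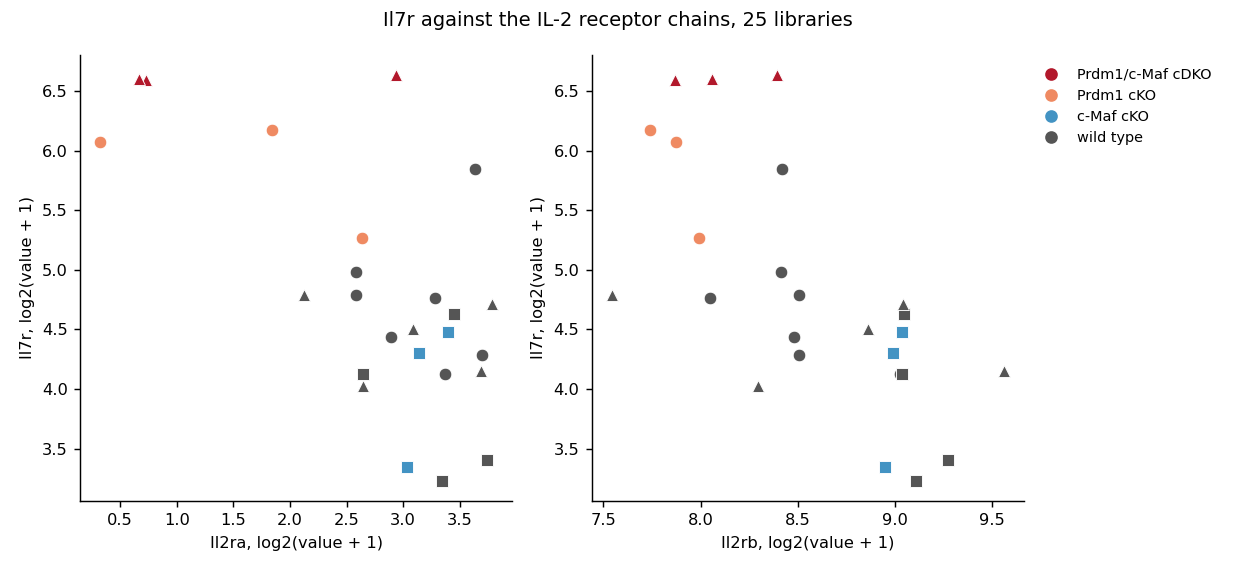
Each point is a library, with log2(value + 1) of Il7r on the y axis and of Il2ra or Il2rb on the x axis, coloured by genotype and shaped by column set as in the plot of values by library. The cDKO libraries sit at the top. For Il2ra, Prdm1 cKO A6 lies farthest left at 0.32, then cDKO A2 and A1 at 0.67 and 0.73, and Prdm1 cKO A9 at 1.84. WT and c-Maf cKO libraries lie mostly lower, toward the right for Il2ra. For Il2rb the WT libraries spread along the x axis, and B3 is farthest left.

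Each member was also set against Prdm1 among the 16 WT libraries, where neither factor was deleted. The share of all genes that follow Prdm1 as closely was not computed. Il2rb followed Prdm1 closely (Pearson's r = 0.922, Spearman's rho = 0.906, permutation p = 1e-05 for each, the smallest that 100000 resamples can give, and adjusted p = 0.00013 over the 13 relations computed). WT libraries with the least Prdm1, B3 at 6.45 and A3 at 9.38, had the least Il2rb, 185.44 and 263.81, and B1 with 21.73 of Prdm1 had the most, 755.00. B3 and A3 also had the highest summed signal of 7 melanoma markers in WT, 3116 and 1838, in a WT range of 6.69 to 3116. Their summed signal of 9 CD8 T cell markers was the lowest in WT, 1251 and 1733, where the highest was 3544. Whether the relation depends on the melanoma signal was not tested. Without the 2 libraries farthest from the median of Prdm1, B3 and B5, r was 0.909. Centred within the column sets r was 0.92, and within set 1, the only set with 6 or more WT libraries, it was 0.823. The mean log2 value of the CD3 genes followed Prdm1 (r = 0.762) and Il2rb (r = 0.771) too. With it held constant, r between Prdm1 and Il2rb was 0.812.

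Il21r was also higher where Prdm1 was higher in WT (r = 0.714, permutation p = 0.00173, adjusted p = 0.0112). By rank the relation did not pass the adjustment (rho = 0.65, p = 0.00803, adjusted p = 0.0522). Without B3 and B5 r was 0.609, within set 1 it was 0.776 and with the CD3 genes held constant 0.663. Yet Il21r did not pass in cDKO or Prdm1 cKO, where Prdm1 was lowest. Il7r ran against Prdm1 in WT (r = -0.582, p = 0.0179, rho = -0.594), and this did not pass the adjustment (adjusted p = 0.0774). It was -0.365 centred within the column sets. The remaining members did not pass with Prdm1 either. These were Il2rg (r = 0.545, permutation adjusted p = 0.0964), Il15ra (0.456, 0.125), Il2ra (0.370, 0.225) and Il4ra (-0.226, 0.469). Il7r and Il2ra showed no detectable relation within WT (r = -0.143, permutation p = 0.601, rho = -0.262), and r was -0.397 without A4 and B7, the libraries farthest from the median of Il7r. Il7r and Il4ra gave r = 0.456 (adjusted p = 0.125) and rho = 0.536 (adjusted p = 0.0734).

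**Figure D4:**
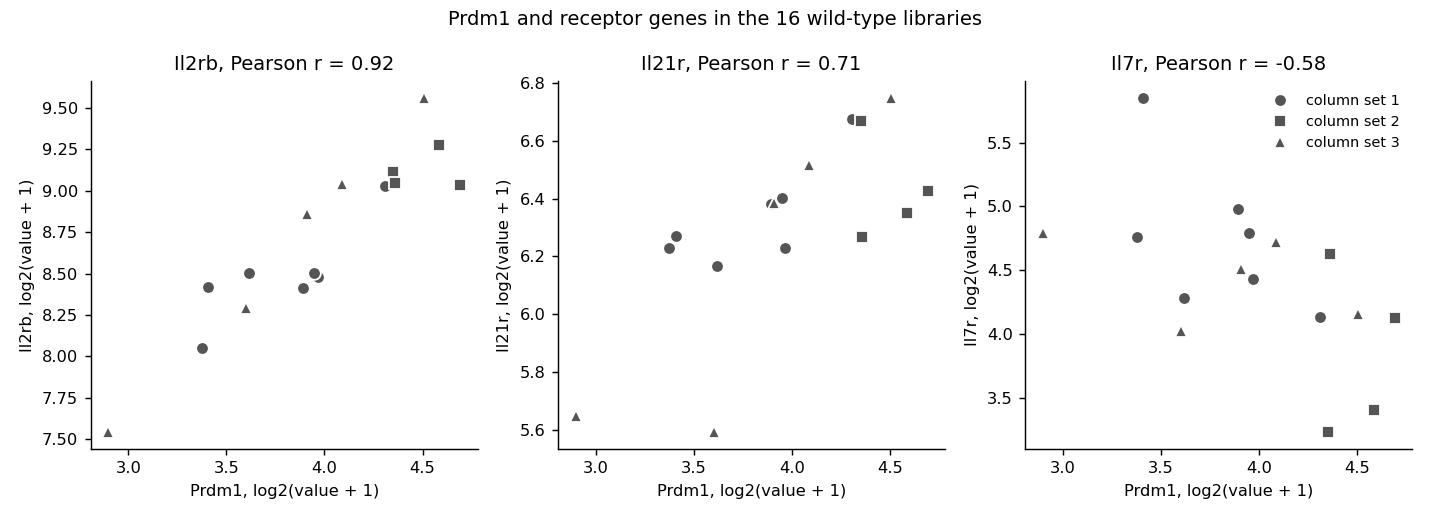
Points are the 16 WT libraries, with log2(value + 1) of Prdm1 on the x axis and of Il2rb, Il21r or Il7r on the y axis, and shapes for the column sets. Il2rb rises along the x axis with r = 0.92, and the point at the lower left is B3.

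The genes whose pattern over all 25 libraries was most like that of Il7r were Emb (r = 0.929), Foxp1 (0.927), Ssh2 (0.920), Pnpla7 (0.904) and Tcf7 (0.900), out of 12244 genes other than the members. These values are a description, since the libraries of a genotype share their direction. Tcf7, the TCF-1 transcription factor of naive, memory and stem-like T cells, averaged 201 ± 15.97 in cDKO and 137 ± 26.3 in Prdm1 cKO, against 58.0 ± 22.4 in WT. Foxp1, a forkhead factor of quiescent T cells, averaged 32.9 ± 1.73 in cDKO, against 14.7 ± 3.05 in WT. After the genotype means were subtracted, the closest 5 were Plcxd2 (0.780), Ssh2 (0.779), Emb (0.778), Foxp1 (0.775) and Antxr2 (0.774), so that Emb, Foxp1 and Ssh2 stood in both lists. Among the members, Il4ra was closest to Il7r, with r = 0.848 over all libraries and 0.458 after subtraction.

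For Il2ra the closest genes were Gdpd5 (r = 0.925), Serpina3g (0.865), Bhlhe40 (0.865), Gzmc (0.862) and Tnfrsf9 (0.860). Bhlhe40 is an activation-induced transcription factor, Gzmc a granzyme and Tnfrsf9 the co-stimulatory receptor 4-1BB. After the genotype means were subtracted, Gdpd5 (0.898) again came closest, and Bhlhe40 (0.763) remained in the list with Ssr4 (0.790), AA467197 (0.785) and Cd160 (0.781). Gdpd5 averaged 1.68 ± 2.00 in cDKO and 3.63 ± 2.88 in Prdm1 cKO, against 7.68 ± 2.06 in WT. Of the members, Il15ra was closest to Il2ra, with 0.800 over all libraries and 0.641 after subtraction.

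Downstream of the receptors, the transducers moved unevenly in cDKO. Of 6 JAK and STAT genes tested, 2 were higher and 1 lower, where 11.9% of all genes were called, with a median log2 difference of 0.10 beside -0.03 over all genes. Stat5b, a transducer of IL-2, IL-7 and IL-15 signals, stood at 21.38, 29.29 and 38.46 in C2, A1 and A2, against a lowest, median and highest of 11.73, 15.6 and 24.89 in WT. A1 and A2 exceeded all WT libraries, and Stat5b rose by 0.87 ± 0.18 (limma adjusted p = 0.00243). Jak1 held 116.20, 132.13 and 152.84, above all WT libraries (54.64 to 107.73), and rose by 0.75 ± 0.17 (adjusted p = 0.00427). The calls of Stat5b and Jak1 were lost without A2 and with the marker scores as covariates. Stat3, the IL-21 transducer, held 74.22, 69.55 and 68.38, against a WT median of 125 (64.85 to 200.77). It fell by 0.79 (SE 0.23, adjusted p = 0.021). This call was lost without C2, without A1 and without A2. It was also lost with rescaling to the CD3 genes and with the column set, the letter of the library code or the marker scores as covariates. Stat5a (21.03 ± 2.67 against 19.3 ± 4.04 in WT), Stat6 and Jak3 did not pass. With either single knockout 0 of the 6 passed.

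Of 5 feedback inhibitors, Socs3 and Socs1 were higher and Cish lower in cDKO, where 11.9% of all genes were called, and Socs3 and Socs1 were higher in Prdm1 cKO, where 3.45% were. Socs1 held 77.75, 78.59 and 94.04 in cDKO and 79.45, 113.16 and 101.60 in Prdm1 cKO, against a lowest, median and highest of 31.42, 42.9 and 80.17 in WT. It rose by 0.90 ± 0.21 in cDKO (limma adjusted p = 0.0049) and by 1.12 ± 0.21 in Prdm1 cKO (0.0043). Socs3 held 102.12, 163.42 and 215.58 in cDKO and 89.06, 211.45 and 212.88 in Prdm1 cKO, against 28.96, 55.4 and 101.42 in WT. It rose by 1.44 ± 0.30 (adjusted p = 0.0024) and 1.49 ± 0.30 (0.0087). Without A2 both calls were lost in cDKO, and without A6 both were lost in Prdm1 cKO. With the marker scores as covariates, the Socs1 call was lost in cDKO and both were lost in Prdm1 cKO. The Socs3 call in Prdm1 cKO was also lost without A9 and with the column set or the letter of the library code as covariate. Cish, a STAT5-induced inhibitor, held 29.24, 11.89 and 12.83 in C2, A1 and A2, against 17.01, 38.3 and 64.96 in WT. C2 again stood within the WT range, as for Il2ra. Cish fell by 1.10 in cDKO (SE 0.28, adjusted p = 0.0096), and the call was lost without A1 and without A2. The Cish call was also lost with rescaling to the CD3 genes and with the marker scores as covariates. Over the list the median was 0.12 in cDKO and 0.56 in Prdm1 cKO, beside -0.03 and -0.02 over all genes.

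Of 15 genes that IL-2 and STAT5 are known to induce, a list that includes Il2ra, Il2rb and Cish, 8 were lower and 1 higher in cDKO (11.9% of all genes called), with a median of -0.69. In Prdm1 cKO 4 were lower, 1 was higher and 10 did not pass (3.45% of all genes called), with a median of -0.56. Granzyme B (Gzmb) stood at 47.33, 8.49 and 12.47 in cDKO and 5.68, 7.18 and 32.17 in Prdm1 cKO, against a lowest, median and highest of 114.16, 450 and 1050.61 in WT. All 6 knockout libraries lay below all WT libraries, and Gzmb fell by 4.51 (SE 0.55, limma adjusted p = 6.6e-05) and by 5.10 (SE 0.55, 3e-05). Perforin (Prf1) and Tnfrsf9 fell in both groups, and Tnfrsf4 in cDKO. In Prdm1 cKO the Tnfrsf9 call was lost with the column set as covariate and without A6 or A9. With the letter of the library code or the marker scores as covariates, the Prf1 and Tnfrsf9 calls in Prdm1 cKO were lost. The Tnfrsf4 call in cDKO was lost with the marker scores. The exceptions were Myc in cDKO and the cytokine Osm in Prdm1 cKO. Myc was higher by 0.53 ± 0.15 (adjusted p = 0.0185), a call lost without C2 or A2 and with the marker scores as covariates. Osm was higher in Prdm1 cKO by 2.41 ± 0.55 (adjusted p = 0.0197). Osm is also a myeloid product, and the summed macrophage marker signal of that group ran from 1388 to 4196. With the marker scores held constant the Osm call was lost, as it was with the column set as covariate, with the letter of the library code, with a pseudocount of 0.1 and without A9.

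Of 10 genes of the IL-7 response and of cells rich in Il7r, a list that includes Il7r, 8 were higher and 0 lower in cDKO, where 11.9% of all genes were called, with a median of 1.81. They included Tcf7 (1.87 ± 0.29), Il7r and the TCF-family factor Lef1 (1.99 ± 0.32). The Lef1 call was lost with the marker scores as covariates. In Prdm1 cKO Tcf7 (1.31 ± 0.29, limma adjusted p = 0.0166) and Il7r passed, where 3.45% of all genes did, with a median of 1.04. The Tcf7 call there was lost with the column set, the letter of the library code or the marker scores as covariates and without A6 or A9. Bcl2, the survival gene that IL-7 maintains and named here after its values were seen, held 66.44, 40.51 and 57.50 in C2, A1 and A2, all above WT (10.66 to 29.70). It rose by 1.45 ± 0.25 in cDKO (adjusted p = 4.6e-04), and this call was lost with the marker scores as covariates. Of 6 transcription factors known to act on Il7r, only Ets1 passed in cDKO (0.53 ± 0.12, adjusted p = 0.0049), and 0 passed in Prdm1 cKO. Ets1 held 84.27, 106.04 and 115.56 in cDKO, against 56.23 to 85.74 in WT. Its call was lost without A2 and with the marker scores as covariates. Foxo1, which drives Il7r in T cells, averaged 9.10 ± 1.79 in cDKO and 5.82 ± 1.89 in WT and did not pass.

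**Figure D5:**
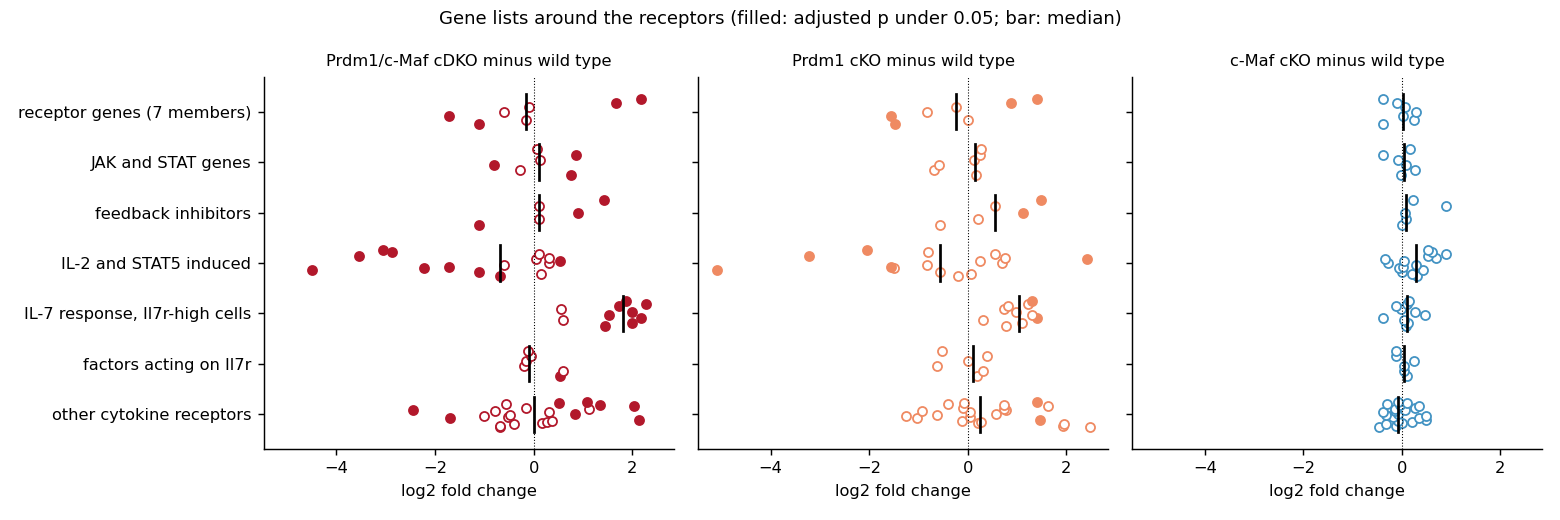
Each point is a gene's limma log2 fold change against WT, in rows by gene list and panels by knockout, filled where the adjusted p was under 0.05, with a bar at the list's median. In cDKO the IL-7 response genes lie right of 0 and most IL-2 and STAT5 induced genes left of it, and the c-Maf cKO panel holds no filled point.

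The ligands were barely measured. Of 8 cytokine genes, those of the family with Tslp and Il13 added, only Il2 and Il15 passed the minimum for testing. Neither was called in any comparison with WT. Il15 averaged 0.47 ± 0.30 in cDKO, 1.58 ± 0.35 in Prdm1 cKO and 0.87 ± 0.70 in WT. Of 3 further receptor chains, Crlf2, the TSLP receptor chain, was lower in cDKO (19.09, 10.39 and 10.72, against 11.81 to 29.43 in WT). The difference was -0.68 ± 0.21 (limma adjusted p = 0.0338). Its call was lost without A1 or A2, without the filter and with rescaling to the CD3 genes. It was also lost with the column set or the marker scores as covariates. Il9r and Il13ra1 did not pass.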

How the data were processed

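CD8+ T cells from B16F10 tumours were profiled as bulk libraries with an adapted SMART-Seq 2 protocol, per the labels' protocols. The authors deposited a normalised signal per gene symbol whose scale is not stated, and the submitters' processing notes name TopHat, RSEM, DESeq and build mm9 without versions. The 10th percentile of values above 0 was 0.42 for the shortest and 0.06 for the longest quartile of transcripts, so the signal is treated as length-scaled. It is not a count table, so depth is unknown and no counting interval is given. Columns were assigned to genotypes by name, and a library is called by its code. Runs of adjacent columns form 3 column sets, a candidate batch: set 1 holds Prdm1 cKO, set 2 c-Maf cKO and set 3 cDKO, each with its own WT columns. The 12251 genes that reached a value of 1 in 3 or more libraries were tested on log2(value + 1), which understates changes of low values, in 1 fit of all 25 libraries with limma 3.58.1 (R 4.3.3, trend and robust options) and Benjamini-Hochberg adjustment over all genes. The fit was tested on simulated data. Single members were compared by exact two-sided permutation, unadjusted. WT relations used 100000 resamples in SciPy 1.17.1. Text names the 7 members, the targeted genes, up to 4 called genes per list and comparison, and the 5 genes most like Il7r and Il2ra. One listed gene is not reported here. The members, lists and tests were chosen with earlier results of these data known. Alternatives changed the pseudocount, filter, scaling, covariates and the libraries.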

Additional observations from a re-analysis of the deposited data

How the results depend on the processing

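The comparisons were refitted under 11 other settings, and with each of the 25 libraries left out, except that the departure from additivity has no fit of only the groups compared. Against WT, 4 members passed in cDKO, 2 with marker scores as covariates and 2 to 5 with a library left out, the lowest without A1 or A2. In Prdm1 cKO 4 passed, 1 with rescaling to the CD3 genes, 0 with the column set, 0 with the letter of the library code and 0 with marker scores as covariates, and 0 to 5 with a library left out, the lowest without A6 or A9. In cDKO against c-Maf cKO, 3 passed and 0 with marker scores, where 0 of all 12251 genes were called. In Prdm1 cKO against c-Maf cKO, 1 passed, 0 without the filter, 0 with the column set, the letter or the marker scores, 2 with only the groups compared in the fit, and 0 to 3 with a library left out. Over all genes in that comparison, 0 were called with the column set or the marker scores, and 2 higher and 3 lower with the letter. The difference in mean Il7r to Il2ra balance between cDKO and WT was 3.902, and 2.35 with a pseudocount of 10. The cause of these shifts was not tested.

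Calls over all genes moved as well. In cDKO 1463 genes passed (624 higher, 839 lower), 275 with marker scores, 738 without A1 and 512 without A2. In Prdm1 cKO 423 passed (194 higher, 229 lower), 59 with the column set, 36 with the letter, 8 with marker scores, 94 without A6, 78 without A9 and 624 with a pseudocount of 10. Rescaling to the CD3 genes moved the median of all genes to 0.31 in cDKO (622 higher, 162 lower) and to 0.36 in Prdm1 cKO (160 higher, 41 lower). Every log2 difference that changed sign was uncalled. Rescaling to the CD3 genes gave 0.24 for Il2rg and 0.19 for Il21r in cDKO, 0.14 for Il2rg in Prdm1 cKO, and -0.24 for Il2ra, -0.21 for Il2rg and -0.0164 for Il21r in c-Maf cKO. Marker scores gave 0.0106 and 0.14 for Il2rg in cDKO and Prdm1 cKO, and -0.47 for Il2ra, -0.12 for Il2rb, -0.0676 for Il2rg and 0.0736 for Il4ra in c-Maf cKO. The column set gave -0.0232 for Il21r in Prdm1 cKO, and 0.20 for Il7r, -0.11 for Il2ra, -0.13 for Il2rb and -0.00413 for Il2rg in c-Maf cKO. The letter gave -0.00430 for Il21r in Prdm1 cKO, and -0.36 for Il2ra, -0.16 for Il2rg and 0.0160 for Il4ra in c-Maf cKO, and a pseudocount of 10 gave -0.00488 for Il2ra. With a library left out, the sign changed within the range for Il2rg in cDKO (-0.449 without C2 to 0.192 without A1), Il21r in cDKO (-0.257 without C2 to 0.0116 without A1), Il21r in Prdm1 cKO (-0.160 without A6 to 0.207 without A9) and Il2ra in c-Maf cKO (-0.0749 without B11 to 0.109 without C1). With the CD3 genes held constant, a setting chosen after seeing the data, some WT relations changed sign. For Prdm1, r was -0.601 with Il2rg (0.545 without this), -0.0440 with Il15ra (0.456) and 0.448 with Il4ra (-0.226). For Il7r, r was 0.307 with Il2rg (-0.291) and 0.00149 with Il2ra (-0.143). Between Il7r and Il4ra r kept its sign, at 0.269 against 0.456.

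No paired analysis was possible because the columns carry no replicate number. The values give no depth, so nothing is said of absence, and 3 libraries per knockout limit every interval.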

Other observations

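Receptors outside the gamma chain family also differed in cDKO. Of 22 other cytokine receptor genes tested, 6 were higher and 2 lower by limma, where 11.9% of all genes were called, with a median log2 difference of 0.01 beside -0.03 over all genes. Il6st, the shared gp130 chain of the IL-6 family, stood at 20.12, 20.20 and 15.18 in C2, A1 and A2, against 3.59 to 12.16 in WT. It rose by 1.35 ± 0.25 (SE, adjusted p = 8.1e-04). Ifngr2, the signalling chain of the interferon gamma receptor, held 31.82, 47.90 and 53.00, against 2.81 to 24.78 in WT, and rose by 2.14 ± 0.40 (adjusted p = 0.0011). Il17ra held 50.54, 36.25 and 35.68, against 14.99 to 30.03 in WT, and rose by 0.85 ± 0.19 (adjusted p = 0.0042). In each of these, all 3 cDKO libraries stood above all WT libraries, as for Il7r and Il4ra. The share of all genes that separate from WT this way was not computed. The 3 calls were lost with marker scores as covariates.

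Il10ra, the ligand-binding chain of the IL-10 receptor, was lower in cDKO. It held 15.87, 8.27 and 7.87 in C2, A1 and A2, against a lowest, median and highest of 12.91, 39.0 and 60.23 in WT, and fell by 1.70 (SE 0.32, limma adjusted p = 0.0010). In Prdm1 cKO 2 of the 22 receptors were higher and 0 lower, where 3.45% of all genes were called. Ifngr2 stood at 18.23, 33.96 and 31.56 and rose by 1.47 ± 0.40 (adjusted p = 0.040), and Tgfbr3, a TGF-beta co-receptor, at 5.80, 5.57 and 2.84 against 0.10 to 3.24 in WT, a rise of 1.40 ± 0.33 (0.020). Both calls were lost with the column set as covariate, with marker scores as covariates and without A6. The Ifngr2 call held in 23 of 36 alternatives and the Tgfbr3 call in 29 of 35.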
